A study of Homo sapiens with 32 samples.

Results

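RNA from Hep3B cells transduced with helicase mutants of NAT10 was compared with RNA from cells transduced with acetyltransferase mutants. Hep3B is a human hepatoma line. NAT10 is a nucleolar enzyme that acetylates cytidines of rRNA and tRNA to N4-acetylcytidine (ac4C), and it joins an ATP-dependent RNA helicase domain to a GNAT acetyltransferase domain. K290A replaces a lysine of the Walker A motif, which binds ATP, and E389L replaces a glutamate of the Walker B motif. H537A and G641E replace residues of the GNAT domain. Libraries were chosen by genotype label alone. They were the 16 of 32 libraries made from these 4 mutants, of which 8 were mock libraries and 8 were NaCNBH3 libraries, with 2 replicates per mutant and fraction. Replicates were independent transductions. Each fraction therefore compared 4 helicase-mutant libraries with 4 GNAT-mutant libraries.

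All 4 mutants shared one background. Endogenous NAT10 carried a C-terminal FKBP12F36V degron, cells were transduced with a lentiviral construct of each mutant under an EF1A promoter and selected with blasticidin, and every culture received 100 nM dTAGV1 for 24 h to degrade the tagged protein. The mock fraction was treated with acid alone and the NaCNBH3 fraction with NaCNBH3 in acid, which lets ac4C be read as T. Both fractions were split from the same RNA, so the NaCNBH3 values are a second look at the same cultures and not a second experiment. Protein amounts of the 4 mutants were not part of these data.

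The question here was whether the mutant classes differed outside ac4C itself. Ribosomal RNA is cut from a long precursor that carries the 5′ ETS, ITS1, ITS2 and 3′ ETS spacers around 18S, 5.8S and 28S rRNA. The 5′ ETS is bound by U3 snoRNA early in the assembly of the small subunit, ITS1 separates the small-subunit RNA from the large-subunit RNAs, and ITS2 is removed during large-subunit maturation. C/D snoRNAs guide 2′-O-methylation and H/ACA snoRNAs guide pseudouridylation of rRNA, with scaRNAs doing the same for spliceosomal snRNAs. Many base modifications of rRNA and tRNA block or mislead reverse transcriptase, so that a fixed share of reads carries a mismatch at the modified base without any chemical treatment.

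Modified bases other than ac4C were followed at fixed positions. The sequences below are shown because the mismatch results are read at their capital letter, which marks the modified base, 5′ to 3′ on the strand of the RNA and in GRCh38 coordinates. The rRNA coordinates are those of a copy on chromosome 21, 1 of up to 8 rDNA copies on chromosome 21 and unplaced scaffolds, and reads over all copies were summed.
18S U1248, N1-methyl-N3-aminocarboxypropyl-pseudouridine, chr21:8210868-8210888, plus strand: ttaatttgacTcaacacggga
18S A1851, N6,N6-dimethyladenosine placed by DIMT1, chr21:8211471-8211491, plus strand: ccgtaggtgaAcctgcggaag
28S A1322, 1-methyladenosine, chr21:8215194-8215214, plus strand: acccgtcttgAaacacggacc
28S U4530, 3-methyluridine, chr21:8218392-8218412, plus strand: gtgagctgggTttagaccgtc
MT-RNR2 A947, 1-methyladenosine of mitochondrial 16S rRNA, chrM:2607-2627, plus strand: tgttccttaaAtagggacctg
MT-ND5 A1374, 1-methyladenosine in the coding sequence of a complex I mRNA, chrM:13700-13720, plus strand: aacgcctggcAgccggaagcc
MT-TS1 C32, 3-methylcytidine of mitochondrial tRNA-Ser, chrM:7476-7496, minus strand: atggggttggCttgaaaccag
MT-TT C32, 3-methylcytidine of mitochondrial tRNA-Thr, chrM:15907-15927, plus strand: atacaccagtCttgtaaaccg
MT-TM C34, 5-formylcytidine of mitochondrial tRNA-Met, chrM:4422-4442, plus strand: ctatcgggccCataccccgaa
MT-TK A9, 1-methyladenosine of mitochondrial tRNA-Lys, chrM:8295-8313, plus strand: cactgtaaAgctaacttag

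Libraries of the helicase mutants differed widely in how much of the transcriptome they covered. Mock libraries held 1263122509 to 1732040929 base calls. The number of positions with 30 or more reads, the least the files list, was 3735165 and 1050459 in K290A, 1633904 and 404211 in E389L, and between 400284 and 752639 in the GNAT mutants. Comparisons used the 338066 positions listed in all 8 mock libraries or the 337359 listed in all 8 NaCNBH3 libraries. Depth per position stopped near 20030 reads, so RNAs such as mature rRNA could not vary upward. NAT10 was listed in the K290A libraries at 1441 to 3126 exon positions, in H537A at 615 to 2758 and in G641E at 2765 to 3028. In K290A replicate 1, 2951 of 3110 positions in mock and 2971 of 3126 in NaCNBH3 lay in the coding sequence. The rest need not come from the introduced NAT10. No NAT10 exon position was listed in any library labelled E389L, although its mock replicate 1 listed more positions in all than any GNAT-mutant library. Libraries without an introduced NAT10 also listed 0, and those with introduced wild-type NAT10 listed 518 to 1082. Expression of the E389L construct was therefore not seen in these files, and every value given for E389L is that of the libraries so labelled. The K290 and E389 codons were listed in none of their own libraries, so the helicase substitutions could not be checked by sequence. At the substituted codon, 61 of 62 reads carried the G641E change at its second base in G641E mock replicate 1, and 36 of 37 carried the H537A change in H537A mock replicate 1. Of 12 hepatocyte and hepatoma markers, 8 to 12 were listed in every library of the 4 mutants, and of 6 erythroleukaemia markers none was. Of 4 leukocyte markers, 1 was listed in every library but H537A mock replicate 2, where 0 were. Of 5 fibroblast markers, 1 was listed in K290A NaCNBH3 replicate 1 and 0 elsewhere. Because RNA was extracted in bulk, fewer cells making an RNA and less of that RNA per cell cannot be told apart.

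The 5′ ETS was deeper relative to ITS2 in every helicase-mutant library than in any GNAT-mutant library. Values are log2 ratios of mean depth per position, over 3611 positions of the 5′ ETS and 1167 of ITS2 in mock. In mock the ratio was 0.037 and 0.331 in E389L and -0.530 and -0.115 in K290A. It was -0.939 and -0.931 in G641E and -0.820 and -0.710 in H537A. The 2 groups did not overlap, with means of -0.0692 ± 0.359 (SD, n = 4) and -0.850 ± 0.108 (SD, n = 4). The difference of 0.781 gave p = 0.0286 in a two-sided exact permutation test over all 70 assignments of 4 against 4, the smallest p that test allows, and an adjusted p of 0.0571 over the 4 spacer ratios tested. It therefore missed the threshold of 0.05 after adjustment. The SDs and tests here and below take libraries as units, although each class was 2 mutants with 2 replicates each. They do not measure the spread between mutants of a class. Without K290A replicate 1 the difference was 0.935 and, with ITS1 over ITS2 and 5′ ETS over ITS1, it passed (adjusted exact permutation p = 0.0381 for all 3).

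The NaCNBH3 fraction of the same RNA gave the same order. The ratio was -0.034 and 0.449 in E389L, -0.578 and -0.312 in K290A, -1.02 and -0.768 in G641E, and -0.783 and -0.704 in H537A. Again no library of one group fell among those of the other, and the difference was 0.701 (exact permutation p = 0.0286, adjusted p = 0.0571). E389L lay further from the GNAT mutants than K290A did. With E389L alone against the 4 GNAT libraries the mock difference was 1.03, and with K290A alone it was 0.528. With 4 against 2 libraries the smallest exact p is 0.0667, which both reached. E389L and K290A were not tested against each other.

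**Figure D1:**
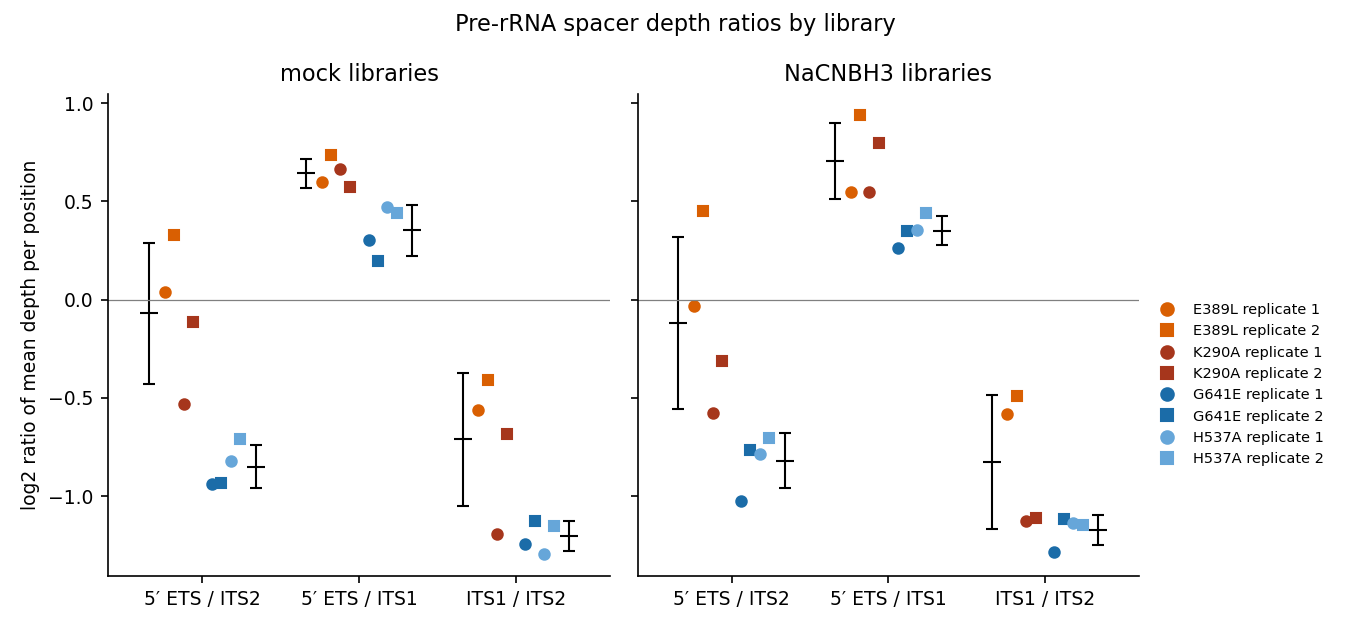
Log2 ratio of mean depth between pre-rRNA spacers (y axis) in each mock and NaCNBH3 library of the 2 helicase mutants and the 2 GNAT mutants; points are libraries and bars are group means with SD. For 5′ ETS over ITS2 in mock, the 4 helicase-mutant libraries lie between -0.530 and 0.331 and the 4 GNAT-mutant libraries between -0.939 and -0.710.

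The 5′ ETS was also deeper relative to ITS1. In mock this log2 ratio was 0.598, 0.738, 0.663 and 0.571 in the helicase mutants (E389L before K290A) and 0.304, 0.195, 0.473 and 0.440 in the GNAT mutants (G641E before H537A). The groups did not overlap, with a difference of 0.289 in mock and 0.356 in NaCNBH3 (exact permutation p = 0.0286 and adjusted p = 0.0571 in both). ITS1 over ITS2 differed by 0.491 in mock, where K290A replicate 1 at -1.19 lay among the GNAT mutants (-1.29 to -1.13), with exact permutation p = 0.0857. The 3′ ETS, the shallowest spacer, differed relative to ITS2 by -0.217 in mock (exact permutation p = 0.771) and -0.558 in NaCNBH3 (p = 0.286), and its groups overlapped in both. The 18S over 28S ratio could not be read, because 46.1% of 18S positions and 38.4% of 28S positions lay within 5% of the depth limit.

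The separation ran along most of the 5′ ETS. Each spacer was cut into windows of 500 bases, and the depth of each window was set against the whole of ITS2. Of 15 mock windows, 6 had all 4 helicase-mutant libraries above all 4 GNAT-mutant libraries. They were bases 501 to 1000 of the 5′ ETS (log2 difference 0.918), 1501 to 2000 (0.883), 2001 to 2500 (0.881), 2501 to 3000 (0.960) and 3001 to 3500 (0.908), and bases 1 to 500 of ITS1 (0.578). Each had exact permutation p = 0.0286 and adjusted p = 0.0714 over the 15 windows. The first 500 bases of the 5′ ETS (0.608) and bases 1001 to 1500 (0.544) overlapped between groups. Within ITS2 itself, windows differed by 0.056 or less. In NaCNBH3, 5 of the same 6 windows separated the groups, and bases 3001 to 3500 did not.

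**Figure D2:**
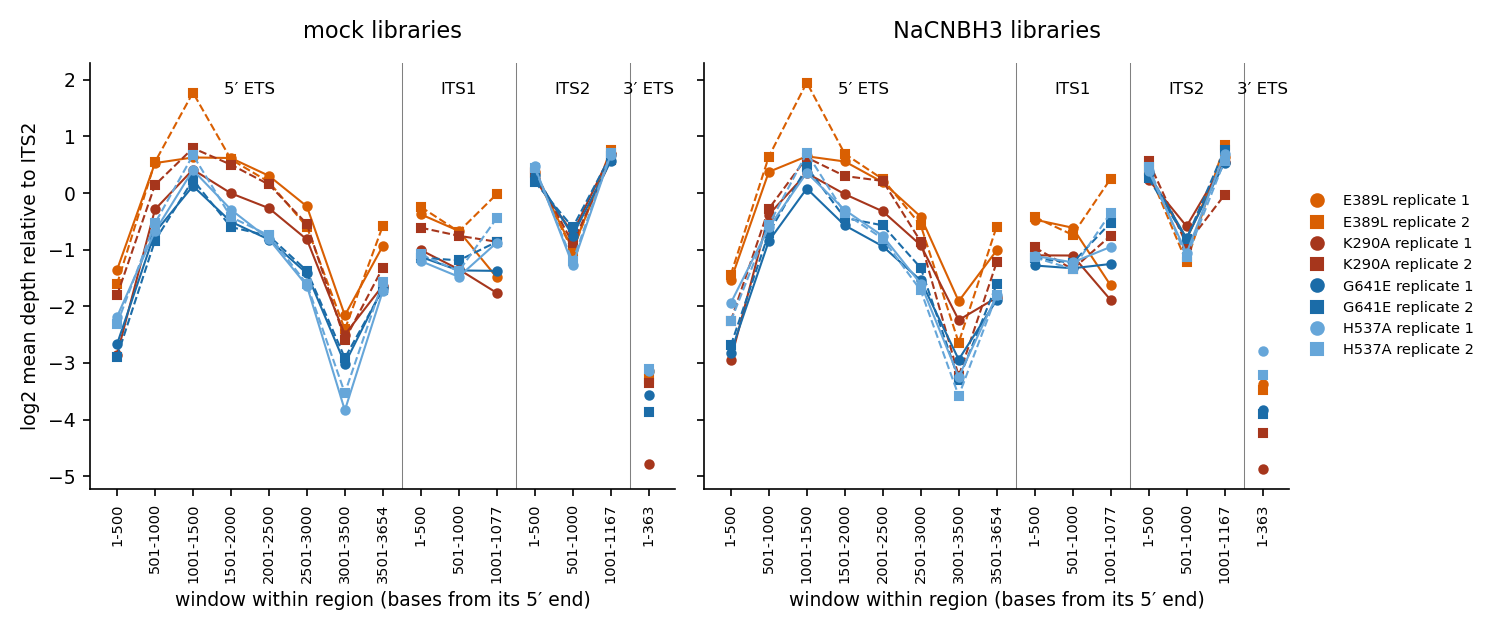
Log2 mean depth of each window of the pre-rRNA spacers relative to ITS2 (y axis) by bases from the 5′ end of the spacer (x axis), in mock and NaCNBH3; each point is a library and lines join the windows of 1 library. In mock, 5 windows of the 5′ ETS between bases 501 and 3500 and the first window of ITS1 have no overlap between the groups.

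Depth of the libraries is given beside these ratios, and its part in them was not tested. K290A replicate 1, with the most positions listed, had the lowest helicase-mutant ratio, and E389L replicate 2, with the second fewest in mock of all 8, had the highest. Without any position near the depth limit the mock difference in 5′ ETS over ITS2 was 0.820. Scaled across all RNAs, 5′ ETS depth differed by 0.08 on the log2 scale (SE 0.384) and ITS2 depth by -0.77 (SE 0.360, edgeR adjusted p = 0.4998), with all 4 helicase-mutant libraries below all GNAT-mutant libraries for ITS2 in both fractions. That scaling depends on the RNAs chosen, and the ratios do not. For scale, among the other genotypes, over positions listed in all 16 mock libraries, 5′ ETS over ITS2 was -0.537 and -0.614 in cells given unmutated NAT10 (NAT10-WT) and -0.502 and -0.513 in parental Wildtype cells. It was 0.0709 and 0.120 in NAT10(-) cells given a control plasmid and -0.367 and -0.0564 in FKBP cells with the degron alone. On those positions the helicase mutants ran from -0.525 to 0.336 and the GNAT mutants from -0.933 to -0.705. No test was made against these other genotypes.

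Few RNAs differed in depth beyond the spread between libraries. In mock, 847 RNAs were tested by edgeR on mean depth per position, and 1 passed an adjusted p under 0.05, which is 0.118% of those tested. Unadjusted p was under 0.05 for 80 RNAs (9.45%), 40 higher and 40 lower in the helicase mutants. All 4 helicase-mutant libraries lay above all 4 GNAT-mutant libraries for 19 RNAs (2.24%) and below them for 20 (2.36%). In NaCNBH3, 828 RNAs were tested and 0 (0%) passed, with 45 at unadjusted p under 0.05 (5.43%, edgeR), 26 higher and 19 lower, and with 5 RNAs not overlapping above (0.604%) and 20 below (2.42%). DESeq2 called 7 RNAs in mock and 5 in NaCNBH3. The median log2 fold change over all RNAs was 0.08 in mock and 0.10 in NaCNBH3. Scaling by total counts in place of edgeR's TMM factors moved these medians to 0.48 and 0.55, so fold changes below are relative to the other RNAs and not absolute.

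K290A and E389L contributed unequally to these counts. Against the 4 GNAT-mutant libraries in mock, K290A alone gave 61 calls in edgeR, 26 higher and 35 lower, of which 24 in each direction were mRNAs. E389L alone gave 0, with 66 RNAs at unadjusted p under 0.05. In NaCNBH3 the counts were 16 and 0. Both comparisons were added after the data were seen, and the mutants were not tested against each other. Leaving out replicate 2 of every genotype gave 27 lower calls among 847 RNAs in mock and 19 among 828 in NaCNBH3. Leaving out replicate 1 gave 0 in both. In mock the 27 included 18S, 28S and 5.8S, both mitochondrial rRNAs, 7SK and 9 spliceosomal snRNAs. These rRNAs and 7SK had positions near the depth limit described above. The part of the limit in these calls was not tested.

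The RNA that passed in mock was RNVU1-17, annotated as a variant U1 snRNA. U1 is the spliceosomal RNA that pairs with 5′ splice sites. Its normalised depth (TMM-normalised reads per position) was 83.5 and 62.5 in E389L, 52.1 and 30.2 in K290A, 203 and 142 in G641E, and 187 and 170 in H537A. Every helicase-mutant library was below every GNAT-mutant library, with a log2 fold change of -1.62 (SE 0.288, edgeR adjusted p = 0.0456). The call ended when any of E389L replicate 2, K290A replicate 1, K290A replicate 2, G641E replicate 1 or H537A replicate 1 was left out, with log2 fold changes from -1.65 to -1.46 and adjusted p from 0.0549 to 0.161 (edgeR). It also ended with total-count scaling (adjusted p = 0.153), the replicate block (adjusted p = 0.0541), a minimum of 10 positions (adjusted p = 0.0601), summed base counts (adjusted p = 0.0695) and E389L alone (adjusted p = 0.172), and without replicate 1 or 2 of every genotype, and held with K290A alone (adjusted p = 0.00680). In NaCNBH3 the log2 fold change was -0.74 (edgeR adjusted p = 0.738) and the groups overlapped.

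The reads behind RNVU1-17 cannot be assigned to it. Only its bases 127 to 163 were listed, 37 positions of 164, and all were identical to the major U1 gene RNU1-1. The 11 substitutions that tell the genes apart lie at base 123 or before, the last being A123G (RNU1-1 base first, positions from the first base of the gene). The shared stretch is shown because it holds the reads that gave the call.
RNVU1-17, bases 127 to 156, chr1:143699464-143699493, minus strand: tttgtggtagtgggggactgcgttcgcgct
RNU1-1, bases 127 to 156, chr1:16514130-16514159, minus strand: tttgtggtagtgggggactgcgttcgcgct
RNU1-1 itself had a log2 fold change of -0.80 with overlapping groups, and 57.8% of its positions lay near the depth limit.

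Of the RNAs lower in both fractions without overlap, 6 of 10 were H/ACA RNAs, a class that made up 117 of the 847 RNAs tested in mock. SNORA81 is an H/ACA snoRNA encoded in an intron of EIF4A2. Its normalised depth in mock was 2489.6 and 1863 in E389L, 2439 and 1291 in K290A, 4234 and 4455 in G641E, and 5386 and 5258 in H537A. The groups were far apart, with a log2 fold change of -1.26 (SE 0.271) that did not pass in edgeR (adjusted p = 0.141) and passed in DESeq2 (adjusted p = 9.12e-05). In NaCNBH3 the log2 fold change was -1.42 (edgeR adjusted p = 0.663), again with no overlap. Its host EIF4A2 differed by -0.19 in mock and 0.09 in NaCNBH3, with overlapping groups in both.

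SCARNA8, which guides modification of U2 snRNA, followed the same order. Its normalised depth in mock was 240.0 and 171 in E389L, 188 and 131 in K290A, 472 and 356 in G641E, and 347 and 276 in H537A. All helicase-mutant libraries were lower, with a log2 fold change of -0.99 (SE 0.275, edgeR adjusted p = 0.453) in mock and -1.12 in NaCNBH3. SNORA74A, an H/ACA snoRNA, read 388.9, 553, 448 and 533 in the helicase mutants and 916, 935, 600.1 and 942 in the GNAT mutants in mock. Its log2 fold changes were -0.82 and -1.16, and both passed in DESeq2 (adjusted p = 0.0496 and 0.0470) but not in edgeR.

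In all, 12 of the 779 RNAs tested in both fractions kept the groups apart in the same direction in both, 10 below and 2 above. The 10 below were SNORA81, SCARNA8, SNORA74A, SNORA69, SNORA6, SNORA31, RNU5F-1, RNU4-1, RNU4-2 and ITS2, and the 2 above were SNORD20 and SNHG29. SNORA74A, SNORA69, SNORA6, SNORA31, RNU4-1, RNU4-2 and SNHG29 were named after their values were seen. RNU5F-1, a variant of the U5 snRNA at the centre of the spliceosome, read 387, 385, 110 and 301 in the helicase mutants and 677, 649, 619 and 561.6 in the GNAT mutants in mock (log2 fold changes -1.09 in mock and -1.53 in NaCNBH3). SNHG29, a snoRNA host transcript, read 183, 183, 185 and 243 against 135, 162, 152 and 157 (log2 fold changes 0.39 and 0.67). RNU4-1 and RNU4-2, the genes of U4 snRNA, had up to 53.2% of their positions near the depth limit.

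**Figure D3:**
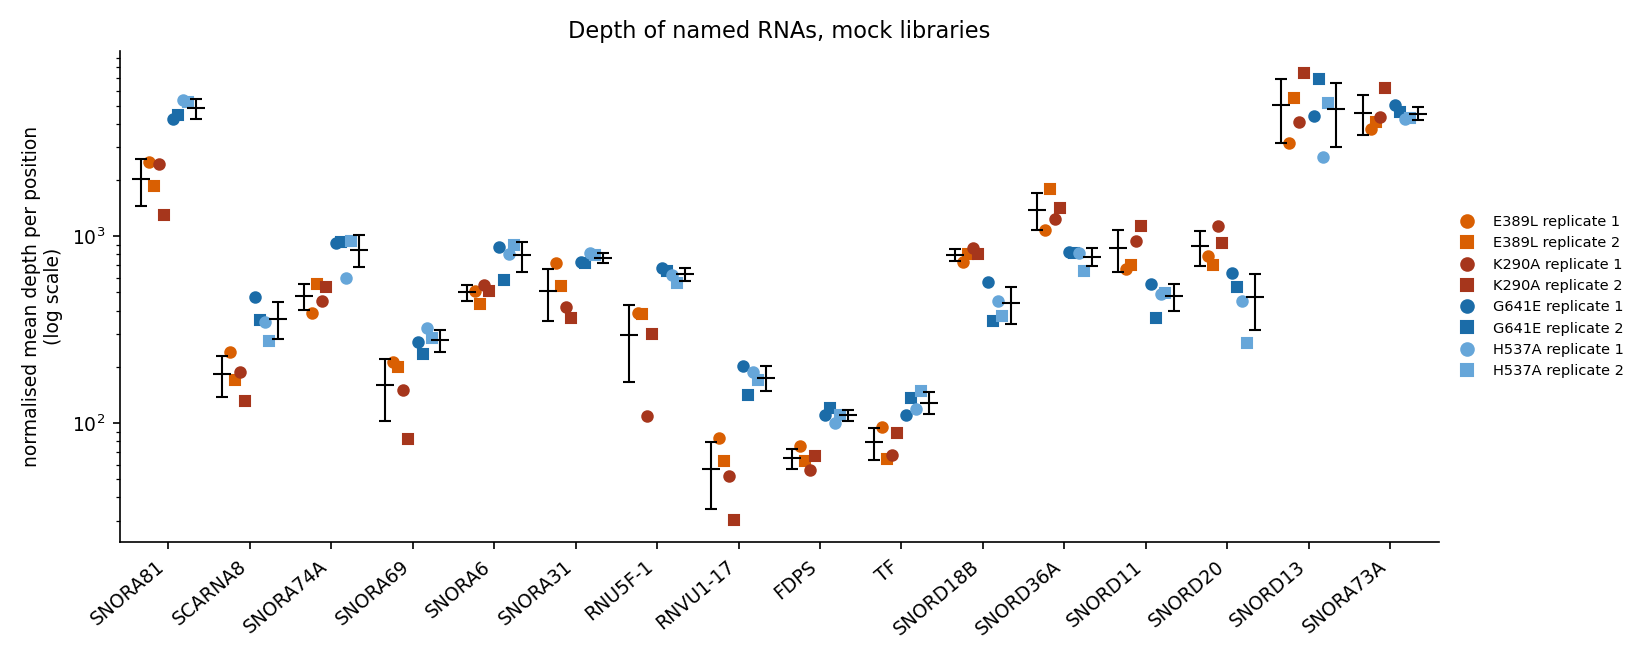
TMM-normalised depth per position (y axis, log scale) of named RNAs in each mock library of the helicase and GNAT mutants; points are libraries and bars are group means with SD. SNORA81 and SCARNA8 lie lower in all 4 helicase-mutant libraries in mock, and SNORD20 higher.

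By class, C/D snoRNAs in mock had a median above that of all RNAs and H/ACA RNAs one below it, and in NaCNBH3 both medians were below. The classes were not tested against each other. Of 117 H/ACA snoRNAs and scaRNAs tested in mock, 1 lay above and 6 below without overlap, and of 116 in NaCNBH3, 0 above and 13 below, with median log2 fold changes of -0.03 and -0.24. Over all RNAs, 2.24% lay above and 2.36% below in mock, and 0.604% and 2.42% in NaCNBH3. Relative to the median of all RNAs the H/ACA medians were -0.12 and -0.33. With K290A alone the mock median was -0.01 relative to all RNAs, and with E389L alone it was -0.30. Of 156 C/D snoRNAs in mock, 15 lay above and 0 below without overlap, with a median of 0.22. In NaCNBH3 that count was 1 above and 1 below of 154, with a median of 0.00, so the mock pattern was not seen again in the other fraction of the same RNA. Relative to all RNAs the C/D medians were 0.14 and -0.10, and with E389L alone the mock median was 0.044. SNORD18B read 725, 800, 864 and 801 in the helicase mutants in mock and 625, 602, 630 and 123 in NaCNBH3, the last of each being K290A replicate 2. That library also had the lowest tRNA share of the NaCNBH3 fraction, 0.290% of base calls against 1.06% to 5.58% in the others.

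The C/D snoRNAs with the smallest p in mock are methylation guides for rRNA. SNORD18B had a log2 fold change of 0.87 (SE 0.261), its GNAT-mutant libraries lying between 352 and 570 against 725 to 864. SNORD36A read 1075 to 1798 in the helicase mutants and 653 to 825 in the GNAT mutants, with a log2 fold change of 0.83. SNORD11 read 664 to 1135 against 367 to 556, and SNORD20 read 702 to 1129 against 269 to 635. These 4 kept the groups apart, and SNORD111 (log2 fold change 0.95) did not. None passed in edgeR (adjusted p = 0.453 for all 5), and SNORD18B passed in DESeq2 (adjusted p = 0.0496).

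SnoRNAs that act in pre-rRNA cleavage did not pass in either fraction. Of 16 on this list 14 were tested, 6 had log2 fold changes above 0 and 8 below in mock, and the median was -0.03 beside 0.08 over all RNAs. U3, read at SNORD3A, pairs with the 5′ ETS and 18S in the small-subunit precursor. Its normalised depth was 6173, 19434 (E389L replicate 2), 6089 and 7946 in the helicase mutants and 12923, 24130 (G641E replicate 2), 12763 and 24368 in the GNAT mutants, in the order used above. E389L replicate 2 lay among the GNAT mutants and the other 3 below them, with a log2 fold change of -0.90 (SE 0.422, edgeR adjusted p = 0.4998). These depths are scaled by each library's summed mean depth and TMM factor. Among the helicase mutants E389L replicate 2 had the smallest of both, 1882972 and 0.741. With total-count scaling the SNORD3A log2 fold change was -0.62 (edgeR adjusted p = 0.229). How far the SNORD3A values follow the scaling was not tested. The 4 U3 genes tested differed by -0.95 to -0.69, and they share sequence, so that they are not separate observations. U8, SNORD118, which acts in large-subunit maturation, differed by -0.74 with 60.4% of positions near the depth limit. SNORD13, the guide for an ac4C of 18S, differed by 0.08 in mock and -0.48 in NaCNBH3. The SNORD14 genes for U14 lay between -0.05 and 0.24 in mock. SNORA73A and SNORA73B, the U17 genes, lay at 0.02 and -0.01, and SNORA13 at -0.25. The directions for SNORD13, SNORA13 and the U14 and U17 genes are not stable, since each changed sign in at least 1 fraction under another scaling, tool or subset of libraries.

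**Figure D4:**
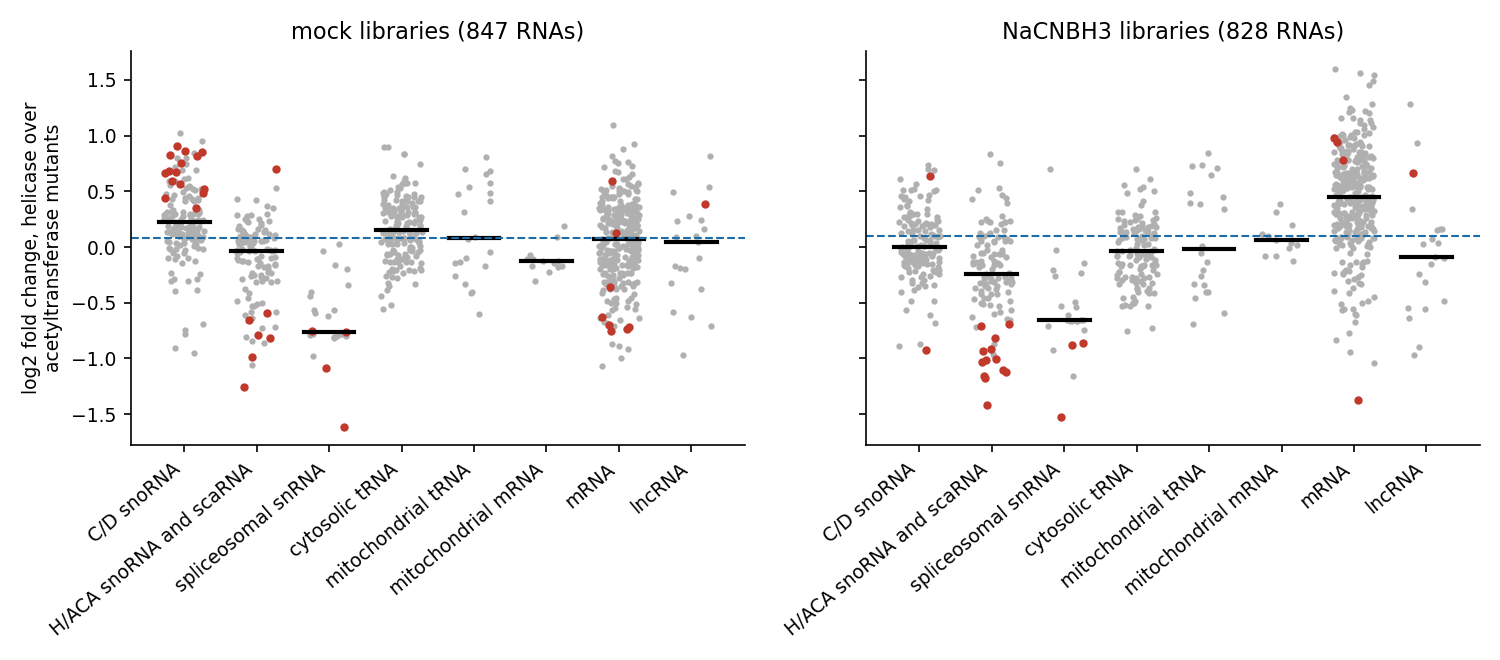
Log2 fold change of depth, helicase over GNAT mutants (y axis), for each RNA by class in mock and NaCNBH3; points are RNAs, red where the groups did not overlap, bars are class medians and the dashed line is the median of all RNAs. In mock, C/D snoRNAs have a median of 0.22 and spliceosomal snRNAs of -0.77.

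The most abundant structured RNAs had log2 fold changes below 0 and many of their positions near the depth limit. Of 25 spliceosomal snRNAs in mock, 24 had log2 fold changes below 0 (median -0.77) and 14 had positions near the limit. With those positions or RNAs left out, 11 remained, all below 0, with a median of -0.65. Mature 18S (-0.83), 28S (-0.80) and 5.8S (-0.77) had similar values, as did mitochondrial rRNA (median -0.78), and all had positions near the limit. How far these values follow the limit was not tested. In both fractions the helicase mutants had less of their base calls in snRNA on average, and in mock without overlap (2.84% to 3.34% against 3.42% to 3.53%, exact permutation p = 0.0286, adjusted p = 0.300 over 21 classes). That is the smallest p the test allows, and at 21 classes a single class could not pass. Outside mature rRNA the mock shares overlapped, at 5.58% to 10.2% against 9.06% to 11.95% (exact permutation p = 0.0857).

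Cytosolic tRNAs had a median of 0.16 over 172 tested in mock and -0.03 over 136 in NaCNBH3, with none of them separating the groups in either fraction. The mock median was -0.29 relative to all RNAs with K290A alone and 0.39 with E389L alone. Mitochondrial tRNAs lay at 0.08 over 22 and mitochondrial mRNAs at -0.13 over 13 in mock. The 7 complex I mRNAs had a median of -0.11 and the 6 cytochrome and ATP synthase mRNAs of -0.16, and no mitochondrial mRNA had an unadjusted p under 0.05 (edgeR).

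The share of base calls in mRNA differed widely inside the helicase group. In mock it was 6.74% and 1.00% in E389L, 14.1% and 3.95% in K290A, 2.72% and 1.24% in G641E, and 2.44% and 1.08% in H537A. E389L replicate 2 was the lowest of all, and the class means of 6.46% and 1.87% did not differ beyond this spread (exact permutation p = 0.171). Long non-coding RNA took 0.549% to 1.04% in the helicase mutants and 0.454% to 0.518% in the GNAT mutants in mock, without overlap (exact permutation p = 0.0286, adjusted p = 0.300 over 21 classes), and with overlap in NaCNBH3. Here too a single class could not pass after adjustment. Outside mature rRNA the mock shares overlapped too, at 1.23% to 2.04% against 1.30% to 1.74% (exact permutation p = 0.6).

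Among mRNAs of secreted liver proteins, those tested were mostly below 0 in mock, and none passed. Of 21 on this list the 11 tested were those with enough positions listed in all 8 libraries, 10 with log2 fold changes below 0, 5 of them at unadjusted p under 0.05 (edgeR), and the median was -0.70 beside 0.08 over all RNAs. Of all 847 RNAs, 343 were below 0 and 40 were lower at unadjusted p under 0.05 (edgeR). For the 301 mRNAs these counts were 131 and 16. TF, the mRNA of the iron carrier transferrin, read 95.1, 64.0, 67.9 and 88.2 in the helicase mutants and 110.2, 136, 120 and 149 in the GNAT mutants. The groups did not overlap, with a log2 fold change of -0.70 (SE 0.222, edgeR adjusted p = 0.453). APOA2, an apolipoprotein of high-density lipoprotein, read 988, 557, 598 and 824 against 1226, 1352, 1139 and 1218, also without overlap (-0.73). APOA1 (-0.996), APOB (-0.92) and SERPINA1 (-0.87) were lower on average with overlap, APOB being high in G641E alone (188 and 249 against 83.3 and 89.6 in H537A). ALB, the mRNA of albumin, differed by 0.22. AFP, the mRNA of alpha-fetoprotein, was not tested in mock, and its listed reads per base of exon were 94.5, 0.904, 48.999 and 11.7 in the helicase mutants and 3.24, 1.39, 2.15 and 0 in the GNAT mutants. FGB, a fibrinogen chain also not tested, was listed at 11.8, 0, 106 and 34.4 against 0 in all 4 GNAT-mutant libraries. The AFP and FGB values are raw listed reads, not scaled between libraries. They cannot be set beside the normalised depths of TF, APOA2 and APOB. Over all RNAs in mock, 386212 positions were listed in every helicase-mutant library, and 766 of them were listed in no GNAT-mutant library. For the GNAT mutants these counts were 366442 and 0. Of the 766, 495 lay in mRNA, most of all in EIF3B (101) and SSRP1 (71), and 50 lay in AFP. Listing depends on depth, and the number of positions listed differed widely between libraries. The part of depth in these counts and in the AFP and FGB values was not tested. The median of the liver list was -0.93 with K290A alone and -0.27 with E389L alone. In NaCNBH3 it was -0.31 over 12 mRNAs, 8 below 0, with no mRNA of the list separating the groups. Genes of this list were among the markers used for the label check above.

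FDPS, which makes farnesyl diphosphate for sterol synthesis, was the mRNA with the smallest p in mock. It read 75.0, 62.5, 56.1 and 66.4 in the helicase mutants and 110.2, 120, 100.4 and 110.1 in the GNAT mutants. The groups lay apart, with a log2 fold change of -0.76 (SE 0.192, edgeR adjusted p = 0.387, DESeq2 adjusted p = 0.0133). In NaCNBH3 the lowest p belonged to SCD, the desaturase that makes monounsaturated fatty acids. It read 64.2, 47.8, 29.2 and 57.1 against 127, 134, 119 and 132, with a log2 fold change of -1.37 (SE 0.329, edgeR adjusted p = 0.663, DESeq2 adjusted p = 0.00141). RNA5S9, a 5S rRNA gene, was also among the lowest there (log2 fold change -1.32).

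Ribosomal protein mRNAs had medians above 0. In mock, 64 of 77 had log2 fold changes above 0 with a median of 0.22, and in NaCNBH3 76 of 77 with a median of 0.63, and none passed or separated the groups. In mock the median was 0.41 with K290A alone and -0.09 with E389L alone, and in NaCNBH3 it was 1.05 and -0.04, with 27 of 77 above 0 for E389L. The mRNAs tested in NaCNBH3 as a whole leaned the same way, with 281 of 323 above 0 and a median of 0.45. The mRNAs highest in NaCNBH3 by p were CCT6A and CCT5, subunits of the TRiC chaperonin, RPL26, TAGLN2 and ALDH1A1. All had K290A replicate 2 as the highest library and at least 1 E389L library below the highest GNAT-mutant library, for example 105, 53.6, 179 and 344 against 49.9 to 70.5 for CCT6A. K290A replicate 2 had an mRNA share of 9.77% in that fraction against 3.95% in mock.

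The remaining lists gave no passing member. Replication-dependent histone mRNAs had a median of -0.23 over 40 in mock, 37 of them below 0, and of 0.13 over 39 in NaCNBH3. The mock median was -0.69 with K290A alone and 0.02 with E389L alone. Chaperones (6 of 20 tested) ranged from -0.65 for HSPA5, an endoplasmic reticulum chaperone, to 0.57 for HSPA8. Glycolysis (5 of 15 tested) had a median of 0.20 and snoRNA hosts (8 of 19 tested) of 0.29. Of 43 ribosome biogenesis proteins only NPM1 (0.88), NCL (0.32) and FBL (-0.18) were deep enough in mock, and of 20 proliferation genes 3, with a median of -0.11. None of 20 targets of the integrated stress response and none of 10 p53 targets had enough listed positions, and NAT10, TSR3, EMG1 and THUMPD1 were also not tested.

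No position differed in mismatch share between the mutant classes after adjustment. In mock, 676 positions of rRNA, spacers, tRNA and mitochondrial RNA with a mean mismatch share of 1% to 99% were tested by limma, and 0 (0%) passed. They were taken by mismatch share alone and need not be modified bases. Among them, 114 lay in pre-rRNA spacers. The smallest adjusted p was 0.978, with 28 positions (4.14%) at unadjusted p under 0.05, 15 higher and 13 lower. All helicase-mutant libraries lay above for 10 positions (1.48%) and below for 6 (0.888%). In NaCNBH3, 621 positions were tested and 0 passed (smallest limma adjusted p = 0.993), with 10 at unadjusted p under 0.05 (1.61%), 4 not overlapping above (0.644%) and 7 below (1.13%). The median absolute difference between class means was 0.671 percentage points in mock. Of 531 positions tested in both fractions, 2 kept the groups apart in the same direction in both, bases G1252 (lower) and G1269 (higher) of the 5′ ETS.

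In 18S rRNA, U1248 was read with a mismatch, mostly C, in 16.2% and 20.8% of reads in E389L, 15.9% and 17.9% in K290A, 18.7% and 20.9% in G641E, and 20.5% and 22.5% in H537A in mock. The hypermodification here is completed by EMG1 and TSR3 during small-subunit assembly. The helicase-mutant mean was 17.7% ± 2.26 (SD, n = 4) and the GNAT-mutant mean 20.6% ± 1.56 (SD, n = 4), and the groups overlapped. The difference of -2.97 percentage points gave p = 0.0857 in the exact permutation test and an adjusted p of 0.452 over the 38 fixed sites. In NaCNBH3 it was -1.88 points (exact permutation p = 0.143). Within each replicate number both helicase-mutant values in mock lay below both GNAT-mutant values, which gave p = 0.0556 in an exact permutation test within numbers, the smallest it allows. The numbers were not taken to pair libraries.

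At A1851, one of the adjacent dimethyladenosines near the 3′ end of 18S, the mismatch share was 1.30%, 2.52%, 1.496% and 1.77% in the helicase mutants and 2.23%, 2.82%, 3.00% and 3.44% in the GNAT mutants. E389L replicate 2 alone reached the GNAT-mutant range (exact permutation p = 0.0571, adjusted p = 0.452), values of the same replicate number did not overlap, and in NaCNBH3 the groups overlapped widely (p = 0.286). Its neighbour A1850 and the 7-methylguanosine G1639 were read without mismatch, under 1% in every library. In 28S, A1322 gave 92.9% ± 0.540 and 93.1% ± 0.144 (SD, n = 4 each), and U4530 gave 41.9% ± 0.333 and 42.1% ± 0.659 (SD, n = 4 each). Differences in class means at these 2 sites were 0.238 points or smaller in size, and p was 0.6 or more in the exact permutation test.

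**Figure D5:**
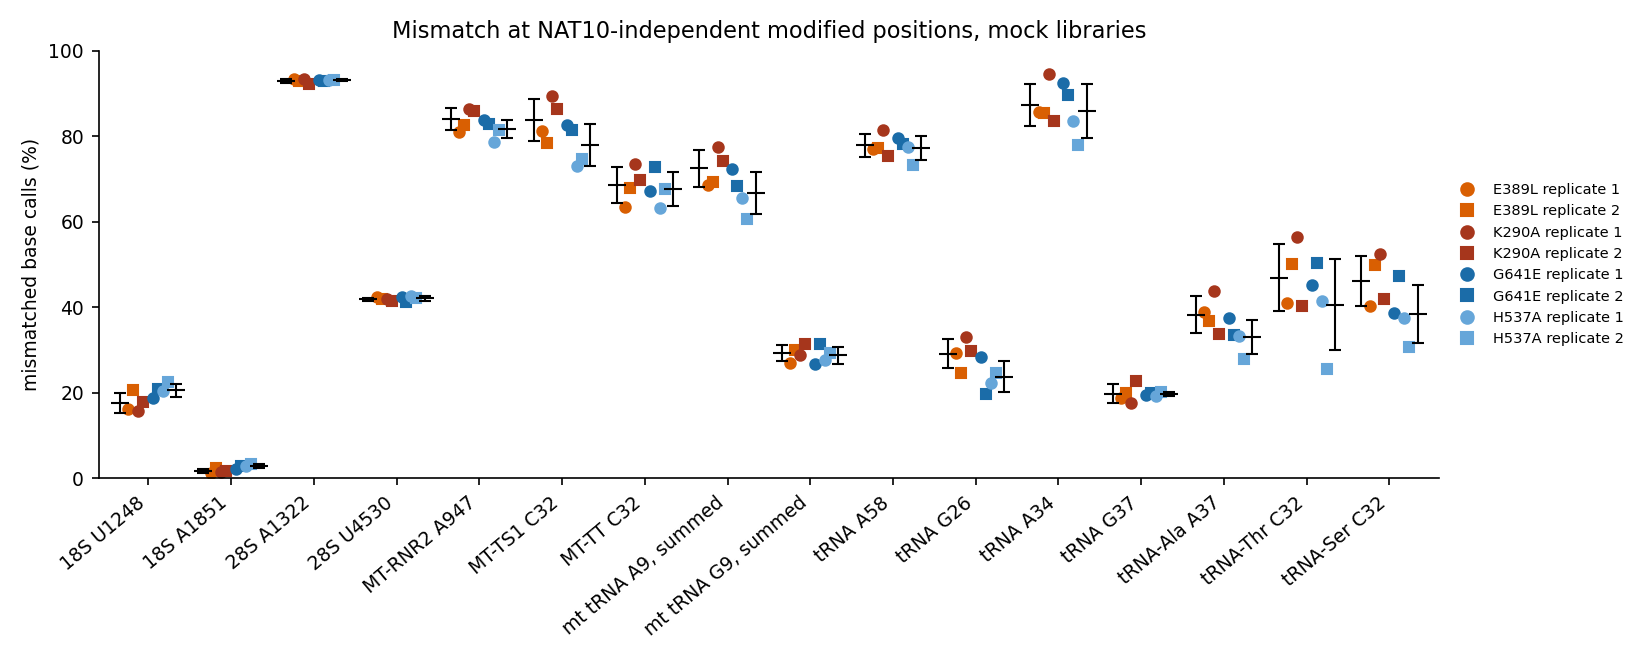
Mismatch share (y axis, percent of reads) at fixed modified positions in each mock library of the helicase and GNAT mutants; points are libraries and bars are group means with SD. At 18S U1248 the helicase mutants lie between 15.9% and 20.8% and the GNAT mutants between 18.7% and 22.5%.

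Mitochondrial sites have their own enzymes in the organelle. MT-RNR2 A947 gave 83.9% ± 2.58 in the helicase mutants and 81.7% ± 2.18 in the GNAT mutants (SD, n = 4 each, exact permutation p = 0.257). MT-ND5 A1374 gave 7.54% ± 1.746 and 9.61% ± 4.33 (SD, n = 4 each), from as few as 119 reads, where the 95% Wilson interval reached ± 5.65 points. MT-TS1 C32 gave 81.3%, 78.5%, 89.4% and 86.3% against 82.6%, 81.5%, 72.96% and 74.6%, a difference of 5.93 points between overlapping groups (exact permutation p = 0.171), and means of 84.5% and 78.3% in NaCNBH3 (p = 0.0857). MT-TT C32 gave means of 68.7% and 67.7%. MT-TM C34 is silent without reduction, with means of 0.270% and 0.261% in mock, and it gave 51.4% ± 2.98 and 53.6% ± 2.48 (SD, n = 4 each) after NaCNBH3, a difference of -2.25 points (exact permutation p = 0.314).

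Base 9 of mitochondrial tRNAs is methylated by the TRMT10C complex. Summed over 13 tRNAs with A9, the mismatch share was 68.6% and 69.4% in E389L, 77.6% and 74.3% in K290A, 72.4% and 68.4% in G641E, and 65.6% and 60.7% in H537A. The means of 72.5% and 66.8% overlapped (exact permutation p = 0.114). Over 5 tRNAs with G9 the means were 29.3% and 28.8%. In NaCNBH3 the A9 means were 67.7% and 67.5%, where K290A replicate 2 fell to 50.4%.

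Cytosolic tRNA sites were summed over genes. A58, where 1-methyladenosine is placed by TRMT6 and TRMT61A, gave 77.8% ± 2.62 and 77.2% ± 2.81 (SD, n = 4 each, exact permutation p = 0.8) over 312 gene copies. G26, the dimethylguanosine of TRMT1, gave 29.3%, 24.7%, 33.1% and 29.8% against 28.4%, 19.9%, 22.2% and 24.6%. The groups overlapped, with a difference of 5.42 points (exact permutation p = 0.0571, adjusted p = 0.452). This sum also depends on which tRNA genes were deep in each library. Of 51 G26 positions tested singly in mock, 27 were higher and 24 lower in the helicase mutants. In NaCNBH3, 14 of 42 were higher and 28 lower. Inosine at A34 gave means of 87.3% and 86.0%, G37 19.8% and 19.7%, A37 of tRNA-Ala 38.3% and 33.1%, and G9 5.91% and 5.67%. C32 gave 47.0% and 40.7% in tRNA-Thr and 46.1% and 38.5% in tRNA-Ser, and it was read without mismatch in tRNA-Arg. At 38 tested sites the smallest adjusted p was 0.452 in mock and 1 in NaCNBH3. The smallest p the exact permutation test allows is 0.0286, so after adjustment a change at a single site could not have passed. These adjusted values therefore do not show that the sites were equal. In NaCNBH3, K290A replicate 2 had the lowest share of the 8 libraries at most tRNA sites, for example 64.9% at A58 against 70.4% to 85.0% in the others.

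The positions with the smallest p outside the fixed sites were mostly in single tRNA families. They are shown because each was singled out by p alone from the positions tested, and none passed.
MT-RNR2 A1360, chrM:3020-3040, plus strand: ccgctattaaAggttcgtttg
tRNA-Ala A34 of TRA-AGC4-1, chr6:28658266-28658286, minus strand: gcgcatgcttAgcatgcatga
tRNA-Val C16 of TRV-TAC2-1, chr11:59551034-59551054, minus strand: catagtgtagCggttatcacg
tRNA-Glu G9 of TRE-TTC4-1, chr1:16535332-16535350, minus strand: tccctggtGgtctagtggc
The capital marks the base read. At A1360 of mitochondrial 16S rRNA the mismatch share in mock was 0.951% and 1.06% in E389L, 1.62% and 1.63% in K290A, 0.971% and 0.813% in G641E, and 0.510% and 0.634% in H537A. It was lower in E389L than in K290A, and E389L replicate 1 lay among the GNAT mutants (limma log2 odds difference 0.85, adjusted p = 0.978). In NaCNBH3 E389L was again lower than K290A and the groups were apart, 1.11% to 1.604% against 0.667% to 1.03%.

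The inosine base of TRA-AGC4-1 was read as G or another base in 20.5%, 19.8%, 28.6% and 20.3% of reads in the helicase mutants and 17.95%, 12.2%, 14.9% and 11.7% in the GNAT mutants. The groups did not overlap (22.3% and 14.2% on average, log2 odds difference 0.79, limma adjusted p = 0.978), from as few as 196 reads. Of the 14 A34 positions tested in mock this one had the lowest mean share, 18.3% beside a median of 78.6%. C16 of TRV-TAC2-1 gave 10.7% and 6.95% on average without overlap in mock and 12.03% and 7.56% with overlap in NaCNBH3. G9 of the tRNA-Gln gene TRQ-CTG6-1 gave 8.33% and 4.44%, from as few as 49 reads, and base 668 of the 5′ ETS 1.34% and 0.833%.

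Lower on average in the helicase mutants were G9 of TRE-TTC4-1 (0.738% and 1.66%), G37 of TRR-ACG1-3 (4.46% and 6.68%), G9 of TRR-TCT1-1 (1.31% and 2.81%) and G31 of MT-TH (2.81% and 5.67%). For MT-TH, K290A gave 1.32% and 1.74% and E389L 4.004% and 4.197%, all below the GNAT mutants at 4.67% to 6.58%. In NaCNBH3 the smallest p was at C12 of TRS-CGA3-1, in a tRNA-Ser arm where NAT10 itself acetylates, which read 1.13%, 0.844%, 2.59% and 0% against 3.68%, 6.27%, 3.56% and 3.72% (limma adjusted p = 0.993). The 0 of 52 reads in K290A replicate 2 allows a share of up to 5.77%. C65 of TRR-CCT2-1 followed at 1.01% and 2.31%, with 0 of 57 reads in the same library, which allows up to 5.26%. Also lower there were base 42 of TRV-CAC5-1 (8.36% and 11.8%) and bases 2383 (1.05% and 1.56%) and 3294 (0.843% and 1.69%) of the 5′ ETS. Higher there were A35 of TRV-TAC2-1 (2.87% and 1.66%) and G48 of MT-TE (1.78% and 1.29%).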

How the data were processed

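RNA was partly depleted of rRNA, fragmented, ligated to a 3′ adapter and split into mock and NaCNBH3 fractions, and cDNA was made with Induro reverse transcriptase and 2-amino-dATP with a molecular identifier of 10 bases. Per the labels and methods, the authors trimmed reads (cutadapt 4.2), extracted the identifiers, aligned to GRCh38 (STAR 2.7.9a) and then removed duplicates (UMI-tools). They piled up bases (SAMtools 1.6) and deposited raw counts of A, T, C and G per strand and position, at positions with 30 or more reads. Replicates were independent transductions.

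Copies with the same 31 bases around a position, and repeated genes, were summed. Mean depth per RNA was the summed count divided by its shared positions (20 or more) and rounded. It was tested by edgeR 4.0.16 quasi-likelihood with TMM factors, with DESeq2 1.42.0 as an alternative (R 4.3.3). Mismatches were tested by limma 3.58.1 on log2((mismatch + 0.5)/(reference + 0.5)). These adjusted p-values are Benjamini-Hochberg over all features of a fraction. Ratios, shares of base calls and fixed sites were tested by exact permutation, two-sided, over 70 assignments. The smallest p of that test is 0.0286, so after adjustment no ratio, window, share or fixed site could pass alone. tRNA positions came from 425 tRNA genes, and reads count at several copies, so intervals cover counting error only. Near the depth limit means within 5% of a library's highest depth. The tests were tried on simulated data. Tables were handled in Python 3.11.15 with numpy 2.4.6, pandas 2.3.3 and pysam 0.24.0.

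Named RNAs were SNORD3A, SNORD13, the SNORD14 genes, SNORD118, SNORA73A, SNORA73B, SNORA13, NAT10, TSR3, EMG1 and THUMPD1 where tested, then in each direction those with the smallest adjusted p under 0.05, and where fewer than 5 passed, the 5 with the smallest unadjusted p. Positions followed the same rule after the fixed sites. Others were named after their values were seen. Groups, members and gene lists were chosen with earlier results of these data known. Alternatives were other scalings, tools, filters, gene copies, subsets of libraries and a replicate block. The 16 libraries of other genotypes were used only for the values given beside the spacer ratios and in 1 fit over all 16 libraries of a fraction.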

Additional observations from a re-analysis of the deposited data

Results flagged for a closer look

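In 8 of 154 groups of 4 libraries examined, 1 library stood apart from the other 3 of its mutant class, where chance alone gives about 1 in 20. In mock, E389L replicate 1 was low for the mismatch share at G9 of MT-TL1 (27.5%, the other helicase-mutant libraries at 30.995% to 31.2%) and at A9 of MT-TW (60.2%, the others at 77.4% to 80.8%). K290A replicate 1 was low for the log2 ratio of 3′ ETS over ITS2 (-5.46, the others at -4.03 to -3.82) and high at the inosine base of TRA-AGC4-1 (28.6%, the others at 19.8% to 20.5%). E389L replicate 2 was low for the share of base calls in H/ACA RNAs (0.670%, the others at 1.47% to 1.53%) and high for the normalised depth of SNORD3A (19434, the others at 6089 to 7946). That library had the smallest summed depth and TMM factor of the helicase mutants, and their part in the SNORD3A value was not tested. Among the GNAT mutants, G641E replicate 1 was high for SNORA73B (3287, the others at 2284 to 2359) and H537A replicate 2 was low for SNORD36A (653, the others at 817 to 825).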

How the results depend on the processing

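Counts of RNAs called in mock (1 as reported) were 0 with total-count scaling, 10 or more positions, summed base counts or E389L alone, 7 with DESeq2, 4 with 1 coefficient per genotype and 61 with K290A alone. In NaCNBH3 (0 as reported) they were 5 with DESeq2, 1 over all 16 libraries and 16 with K290A alone. With single libraries or 1 replicate number left out they ran from 0 to 27 in mock and 0 to 19 in NaCNBH3. No mismatch position was called in any alternative. The fits with 1 mutant, without positions near the depth limit, and the block for ratios and fixed sites were chosen after seeing the data.

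Labels share replicate numbers, but name no shared batch and give only 2 numbers, so they were not taken to pair libraries. Replicate differences correlated between genotypes at 0.0243 to 0.488 for depth and 0.0027 to 0.319 for mismatch in mock, and at 0.111 to 0.807 and 0.261 to 0.525 in NaCNBH3. With the replicate block the mock RNA count was 0 (RNVU1-17 adjusted p = 0.0541, edgeR), and the block changed no other call in the edgeR and limma fits. For ratios and fixed sites the smallest p the blocked exact permutation test allows is 0.0556, so none could pass.

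Signs changed only in values that had not passed. With total-count scaling log2 fold changes were 0.37 for SNORD14A, 0.39 for SNORA73B and 0.12 for SNORA13 in mock, and 0.10 for SNORD14B, 0.29 for SNORD14D and 0.065 for SNORD14E in NaCNBH3. With DESeq2 they were -0.045 for SNORA73A in mock, and -0.00061 for SNORA73A and -0.017 for SNORA73B in NaCNBH3. With K290A alone they were 0.053 for SNORD14A, -0.00078 for SNORD14E and 0.17 for SNORA73B in mock, and -0.29 for SNORD14C in NaCNBH3. With E389L alone they were -0.26 for SNORD13, -0.089 for SNORD14B and -0.31 for SNORA73A in mock, and 0.27 for SNORD14D, 0.12 for SNORD14E, -0.28 for SNORA73A and -0.28 for SNORA73B in NaCNBH3. Without positions near the depth limit they were -0.034 for SNORD13, -0.027 for SNORD14E and -0.077 for SNORA73A in mock.

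At fixed sites, differences in percentage points with the single deepest copy were -0.0589 for tRNA G9 and -0.0139 for tRNA A9, and with K290A alone -0.176 for tRNA G9. With E389L alone they were 0.0036 for 28S U4530, -2.02 for MT-TT C32, -0.266 for mitochondrial tRNA G9, -0.351 for tRNA A34, -0.335 for tRNA G37 and -0.032 for tRNA A9, and the log2 ratio of 3′ ETS over ITS2 was 0.209. In NaCNBH3 they were 0.878 for MT-ND5 A1374, -1.83 for MT-TL1 G9, -3.02 for mitochondrial tRNA G9, -0.709 for mitochondrial tRNA base 9, -2.07 for tRNA A58, -3.23 for tRNA A34, -1.81 for tRNA G37 and -0.256 for tRNA G9.

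With replicates left out, log2 ratios ran from 0.648 to 0.935 for 5′ ETS over ITS2, 0.237 to 0.329 for 5′ ETS over ITS1 and -0.382 to 0.163 for 3′ ETS over ITS2, with 0 to 3 ratios past the threshold. Log2 fold changes in mock ran from -0.22 to 0.19 for SNORA73A, -0.22 to 0.16 for SNORA73B, -0.24 to 0.27 for SNORD13, -0.27 to 0.092 for SNORD14A and -0.061 to 0.16 for SNORD14E. In NaCNBH3 they ran from -0.33 to 0.39 for SNORA73A, -0.34 to 0.40 for SNORA73B, -0.54 to 0.013 for SNORD14B, -0.13 to 0.19 for SNORD14C and -0.32 to 0.087 for SNORD14D. Site differences ran from -0.376 to 0.0086 points for 28S A1322, -0.631 to 2.72 for MT-TT C32, -0.148 to 1.44 for mitochondrial tRNA G9, -1.26 to 3.497 for tRNA A34, -0.668 to 1.51 for tRNA A58, -0.941 to 0.772 for tRNA G37 and -0.134 to 0.531 for tRNA G9. The cause of these changes was not tested. Depth below 30 reads and depth above the limit could not be read.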
